A study of Homo sapiens with 4 samples.

Results

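IRF3 binding in the myeloma cell line MM1.S formed groups of neighbouring regions away from the ends of protein-coding genes, and these clustered distal regions are described here. The members were chosen from the peak positions and strengths themselves. Peaks of both IRF3 ChIP replicates that shared at least 1 bp were merged, which gave 49089 regions, of which 32246 held a peak from each replicate and are called shared. A shared region was called distal when the summit of its stronger peak lay over 1 kb from either end of every protein-coding gene in RefSeq, which left 23085. Distal regions separated by gaps of at most 12500 bp were joined into chains, and every region in a chain of 4 or more was a member. There were 2838 members in 565 chains, which is 12.3% of the shared distal regions and 8.80% of all shared regions. Since the rule used the same measurements that are reported below, peak values and counts of members are descriptions and carry no test.

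MM1.S is an established line of human multiple myeloma, a cancer of antibody-secreting plasma cells. The series has 2 groups of 2 samples from untreated cells grown in RPMI medium with serum and fixed with formaldehyde, namely IRF3 ChIP, numbered 1 and 2, and Input, sheared chromatin without precipitation, numbered likewise. Each ChIP library was compared with the input of its number by the authors, with 38568845 tags from ChIP and 58025919 from input for replicate 1, and 46474586 from ChIP and 60348415 from input for replicate 2. The cells come from 1 line, and no label states that separate cultures were used, so the spread between replicates may be technical.

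A region far from both ends of a gene can still lie at a start inside it. Outside chromosome 8, for which no starts were used, 190 of 2729 members (6.96%) had a summit within 1 kb of a start in the RefSeq promoter table, 105 at protein-coding genes and 85 at long non-coding RNA genes. Of the other shared distal regions 1632 of 19255 (8.48%) did. The members at such starts had a median fold enrichment over input of 4.96 (replicate 1) and 6.75 (replicate 2), against 4.10 and 4.34 in the members away from them. At least 1 member of this kind was present in 146 of the 544 chains outside chromosome 8 and in 7 of the 15 chains that ranked highest. The first chain was not among these 7, as no start from that table lay within 1 kb of its summits. Its leading region overlaps the long non-coding RNA gene NEAT1, and the distance of its summit from the NEAT1 start was not measured. For these 190 members the data go against the word distal. One of them is the strongest region of the PRDM1 chain. Others carried the largest share of their chain's summed pileup times length, at ZBTB38, NFIL3 and SNHG12. Their summits lay 177, 312 and 92 bp from a start of these genes. Still others were minor parts of their chain, such as the ATF3 member at a start, which carried 2.77% of its chain's summed pileup times length.

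IRF3 is a transcription factor that waits in the cytoplasm of most cells and enters the nucleus when foreign nucleic acid is sensed, where it binds interferon-stimulated response elements and switches on interferon and antiviral genes. Enhancers are stretches of DNA away from gene starts that raise transcription of genes nearby, and dense groups of them often lie around genes that define a cell type. In plasma cells such genes include the transcription factors IRF4, PRDM1 and XBP1, and those of antibody folding and secretion. No histone mark, open-chromatin or RNA measurement was analysed here, so whether the clustered regions act as enhancers was not measured, and they are called clustered distal regions.

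The RefSeq promoter windows of GRCh38.p14, which run from 250 bases before to 50 bases after a start, were the sequences available for the members. In all, 196 windows of 149 genes lay wholly inside 151 members, and windows that overlapped a member only in part were not counted. They were searched on both strands for the core of the interferon-stimulated response element, which is GAAA, any 2 bases and GAAA again, and for an ETS-IRF composite element, which is GGAA, any 2 bases and GAAA. A window can hold both, and the matches can overlap. At least 1 of the 2 was found in 16 member windows (8.16%), compared with 6.14% of all 34913 windows of this length in the table. In the 1569 windows inside other shared distal regions the share was 6.37%. The first was found in 10 (5.10%), against 3.57% of all windows and 3.89% of those in other distal regions. The second was found in 7 (3.57%), against 2.82% and 2.80%. Windows of close starts overlap, as at CELF2, so 1 site can be counted in several windows. Among letters known as sites of other factors, CCAAT (NF-Y) was found in 50 windows (25.5%, against 34.6% of all), TGANTCA (AP-1) in 23 (11.7%, against 7.72%), CCGGAAGT (ETS factors) in 6 (3.06%, against 4.10%) and TGACGTCA (the cyclic AMP response element) in 3 (1.53%, against 1.84%). In other distal regions these 4 shares were 31.1%, 7.01%, 5.42% and 3.38%. The windows below are those with a match to either of the first 2 elements whose start lay within 100 bp of a member's summit, for genes with a proper name, and the PRDM1 window at its strongest member; each is written 5′ to 3′ along its gene, with the matches in capitals.
ZBTB38 (chr3:141402764-141403063, plus strand): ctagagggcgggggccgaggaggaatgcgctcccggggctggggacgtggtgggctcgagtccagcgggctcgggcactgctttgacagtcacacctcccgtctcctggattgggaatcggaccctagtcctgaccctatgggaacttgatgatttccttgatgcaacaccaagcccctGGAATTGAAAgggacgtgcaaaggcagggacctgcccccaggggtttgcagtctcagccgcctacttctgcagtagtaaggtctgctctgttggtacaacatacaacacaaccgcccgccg
FOXO3 (chr6:108588523-108588822, plus strand): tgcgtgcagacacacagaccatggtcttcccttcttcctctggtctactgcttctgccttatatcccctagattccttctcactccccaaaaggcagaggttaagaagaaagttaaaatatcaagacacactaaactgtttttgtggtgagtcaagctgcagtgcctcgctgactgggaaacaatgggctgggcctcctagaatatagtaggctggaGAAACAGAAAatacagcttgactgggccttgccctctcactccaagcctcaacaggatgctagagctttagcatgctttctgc
LINC02642 (chr10:7471991-7472290, minus strand): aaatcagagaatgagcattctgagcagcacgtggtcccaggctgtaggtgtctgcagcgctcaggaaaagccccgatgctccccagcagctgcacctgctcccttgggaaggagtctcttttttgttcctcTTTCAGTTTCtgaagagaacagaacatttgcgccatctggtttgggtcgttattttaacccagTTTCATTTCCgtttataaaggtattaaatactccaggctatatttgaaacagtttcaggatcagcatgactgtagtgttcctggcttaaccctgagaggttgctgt
ISG20 (chr15:88638766-88639065, plus strand): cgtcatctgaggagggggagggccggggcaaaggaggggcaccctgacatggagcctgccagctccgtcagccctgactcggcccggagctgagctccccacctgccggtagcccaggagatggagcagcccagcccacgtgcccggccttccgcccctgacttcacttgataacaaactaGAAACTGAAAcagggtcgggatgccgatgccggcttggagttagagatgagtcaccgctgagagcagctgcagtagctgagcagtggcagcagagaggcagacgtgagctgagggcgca
LINC01358 (chr1:59020226-59020525, plus strand): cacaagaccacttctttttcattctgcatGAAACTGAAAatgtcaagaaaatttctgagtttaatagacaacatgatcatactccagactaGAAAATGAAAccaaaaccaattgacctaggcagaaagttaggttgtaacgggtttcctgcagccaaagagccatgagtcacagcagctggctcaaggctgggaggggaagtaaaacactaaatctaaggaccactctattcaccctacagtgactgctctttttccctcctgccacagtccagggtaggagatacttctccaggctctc
PRDM1 (chr6:106086086-106086385, plus strand): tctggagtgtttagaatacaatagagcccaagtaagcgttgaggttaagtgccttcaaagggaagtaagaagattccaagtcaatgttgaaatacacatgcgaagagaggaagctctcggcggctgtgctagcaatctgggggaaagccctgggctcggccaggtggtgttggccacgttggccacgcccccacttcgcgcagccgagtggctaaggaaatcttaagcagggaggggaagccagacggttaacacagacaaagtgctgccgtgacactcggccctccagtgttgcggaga
The ZBTB38 window has an ETS-IRF match, FOXO3 and ISG20 have 1 response element each, LINC01358 has 2, and LINC02642 has 1 of each kind on the opposite strand. The PRDM1 window has no match to these letters, which says nothing of other sequences in its region. The member at the ISG20 start had fold enrichments of 6.13 and 16.1, that at LINC02642 9.92 and 11.9, and that at PRDM1 14.3 and 17.98 in replicates 1 and 2. Values were lower at the printed ZBTB38 (6.39 and 8.42), LINC01358 (4.43 and 6.85) and FOXO3 (2.96 and 2.77) starts.

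By their medians, clustered regions were longer and taller than other distal regions, and their enrichment over input was close to that of the others. Fold enrichment is the authors' own value for each peak, the ChIP fragment count over the local input background at the summit, and pileup is the height of the stacked ChIP fragments there. The median length of a member was 819 bp, against 704 bp in chains of 2 or 3, 615 bp for single distal regions and 1016 bp for shared regions at gene ends. Median pileup in replicate 1 was 79 in members, 70 in chains of 2 or 3, 60 in single regions and 102 at gene ends. In replicate 2 it was 53 in members, 49.5 in chains of 2 or 3, 44 in single regions and 89 at gene ends. The highest pileups lay outside the members, with up to 42441 (replicate 1) and 44314 (replicate 2) in single distal regions, against 1206 and 889 in members. Median fold enrichment spanned less. In replicate 1 it was 4.13 in members (quartiles 3.13 and 5.71), 4.02 in chains of 2 or 3, 3.97 in single regions and 5.34 at gene ends, and in replicate 2 it was 4.46 (quartiles 3.36 and 6.28), 4.35, 4.22 and 8.04 in the same order. All quartile ranges of the members and the other distal regions overlapped widely.

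**Figure D1:**
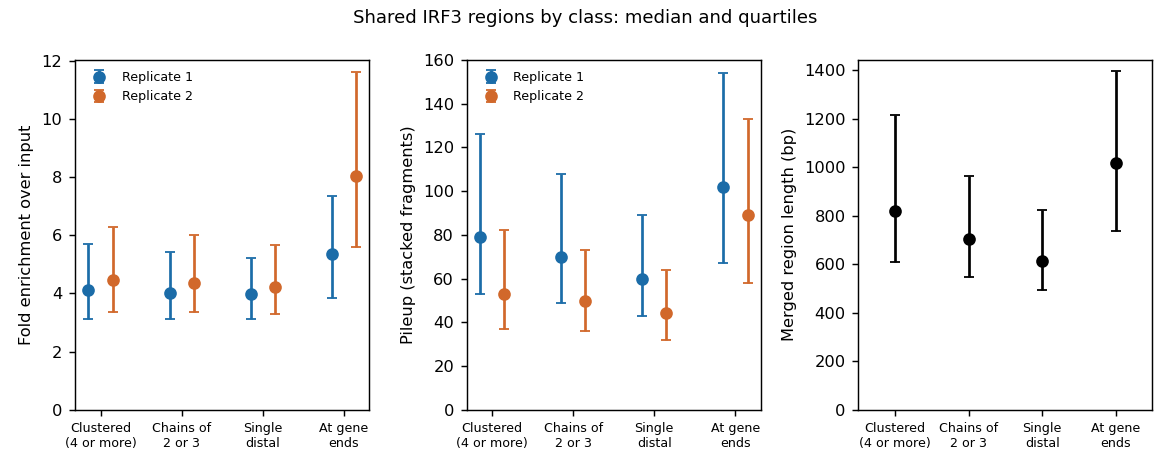
Fold enrichment over input, pileup in stacked fragments and merged region length in bp for 4 classes of shared IRF3 region, with points for the median and bars for the quartiles, replicate 1 in blue and replicate 2 in orange. Members (clustered) had the highest median length (819 bp) and median pileup of the 3 distal classes. Their median fold enrichment of 4.13 and 4.46 lay near that of single distal regions (3.97 and 4.22).

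Strong and broad regions were a minority among the members. A fold enrichment of at least 5 in both replicates was reached by 749 members (26.4%) and by 20.02% of the other shared distal regions, and one of at least 10 by 67 members (2.36%) and 320 others (1.58%). Regions of 3 kb or more numbered 79 among the members (2.78%) and 116 among the other distal regions (0.573%). Most members, 2623 (92.4%), were built from 1 peak of each replicate, and the summits of the replicates lay a median of 59 bp apart, against 51 bp in other distal regions. Pileup was higher in replicate 1 in 89.5% of members, although replicate 1 had fewer ChIP tags, and fold enrichment was higher in replicate 2 in 62.6%. Across the 2838 members, which share both libraries, the rank correlation between replicates (Spearman) was 0.69 for fold enrichment and 0.85 for pileup.

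Most chains were short. Of the 565 chains, 305 held 4 regions, 136 held 5, 108 held 6 to 9 with 741 members, and 16 held 10 or more with 197 members. A chain spanned a median of 20.3 kb (quartiles 15.4 and 26.6, range 3.27 to 76.9), of which the members covered a median of 22.4% (range 6.47 to 90.9%). Together the chains spanned 12.7 Mb and the members 3.02 Mb. The 2273 gaps inside chains had a median of 3.35 kb (quartiles 1.17 and 6.83), and 511 were at most 1 kb. Near the limits of the rule, 37 gaps inside chains were over 12 kb, and 21 gaps of 12500 to 13000 bp lay beside a chain. Chains of 4 held regions with median fold enrichments of 4.01 and 4.32 and a median length of 770 bp, and the 762 chains of 3, just outside the rule, held regions at 4.10 and 4.50 with a median of 740.5 bp. Summits of 13 members lay between 1 and 1.1 kb from a gene end. Between 0.9 and 1 kb from one lay the summits of 159 shared regions, which were left out before chaining. These 159 are not the counterpart of the 13, as they were not required to lie in a chain. With the limit at 500 bp there were 3026 members, against 2838.

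**Figure D2:**
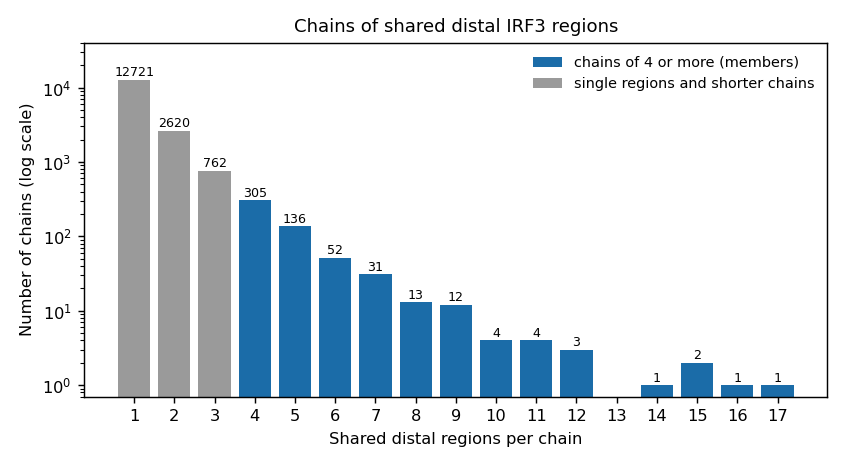
Number of chains (log scale) by the number of shared distal regions in each, with chains of 4 or more, whose regions are the members, in blue and single regions and shorter chains in grey. There were 305 chains of 4 and 1 chain of 17, beside 762 chains of 3 and 12721 single regions.

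Regions of 1 chain differed from each other almost as much as regions of different chains. The intraclass correlation within chains, the share of the variance that lies between chains, was 0.13 in replicate 1 and 0.14 in replicate 2 for log2 pileup, and 0.043 and 0.063 for log2 fold enrichment. Chains usually had a leading region. The score of a chain was the sum over its regions of the mean pileup of both replicates times region length, given here in units of 1e+06 pileup bp, and the leading region carried a median of 45.1% of it (quartiles 37.4 and 56.6, range 17.3 to 98.4%). In 215 chains 1 region carried over 50%. The region with the highest fold enrichment was the same one in both replicates in 347 chains (61.4%).

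The order of the chains was close in both replicates. Scored by each replicate alone, the chains had a rank correlation of 0.95 over 565 chains, in which the region lengths were the same for both, and of 0.89 for summed pileup without length. Of the first 15 chains by replicate 1, 12 were among the first 15 by replicate 2, and 49 of the first 57 were shared in the same way. The median score was 0.398 and the lowest 0.0680. The first chain scored 29.7 times the median and 2.30 times the second chain, and the first 15 chains held 15.5% of the summed score. When the score was taken without length, as summed fold enrichment, 7 of these 15 stayed among the first 15.

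**Figure D3:**
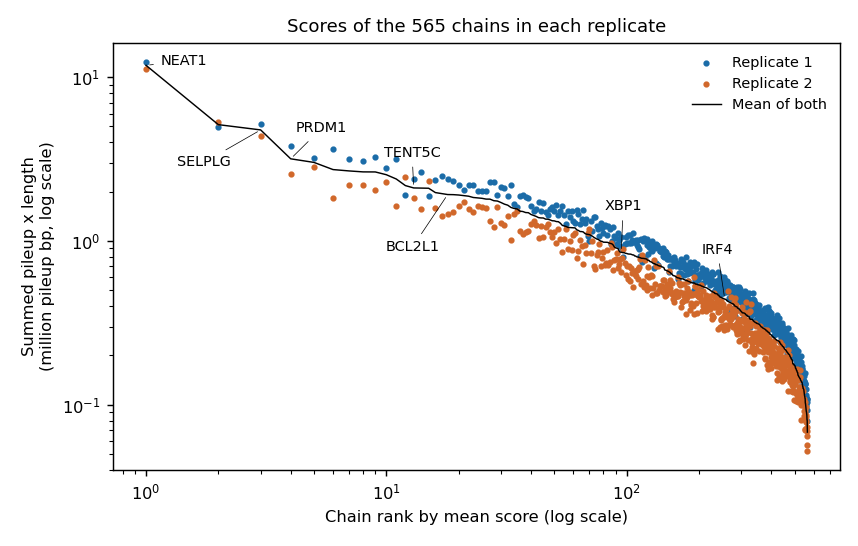
Score of each of the 565 chains (summed pileup times region length, units of 1e+06 pileup bp, log scale) against its rank (log scale), with replicate 1 in blue, replicate 2 in orange and the mean of both as a line. The NEAT1 chain at rank 1 stood at 11.8, ZBTB38, SELPLG and PRDM1 followed at 5.13, 4.76 and 3.17, and the XBP1 chain lay at rank 95.

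The first chain rested on 1 region. It held 4 members on chromosome 11 (chr11:65416291-65441439), and the region of 12507 bp that overlaps NEAT1, the long non-coding RNA that scaffolds nuclear paraspeckles, carried 98.4% of its score. Its pileup was 970 in replicate 1 and 889 in replicate 2, with fold enrichments of 45.4 and 69.3, the highest of any member in each replicate. The other 3 regions of this chain had fold enrichments of 2.22 to 5.52 in replicate 1 and 3.49 to 6.57 in replicate 2. The nearest protein-coding gene was FRMD8, 2.77 kb away. NEAT1 is not protein-coding, so its ends did not count in the rule. Whether the leading region lies at the NEAT1 start was not measured, so the word distal may not hold for it.

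The next chains lay at ZBTB38 and SELPLG. ZBTB38, a zinc-finger protein that binds methylated DNA, held 9 regions within its span over 52.9 kb on chromosome 3, and the one with the highest value in replicate 2 had fold enrichments of 9.17 and 22.3. Its second-longest region and the longest, of 8.43 and 8.95 kb, both contained annotated ZBTB38 starts. At SELPLG, which encodes the P-selectin ligand of white blood cells, a region of 6.01 kb carried 84.9% of the score of 7 regions. It had pileups of 720 and 624 and fold enrichments of 18.9 and 42.1, and the other 6 regions had fold enrichments of 2.87 to 11.05 in replicate 1 and 3.09 to 12.2 in replicate 2.

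PRDM1 encodes BLIMP-1, the repressor that drives plasma cell differentiation, and its chain was ranked 4, with 4 by replicate 1 and 5 by replicate 2. The 7 regions at chr6:106083750-106111217 covered 90.9% of 27.5 kb, the highest coverage of any chain. The member at the internal PRDM1 start had pileups of 354 and 280. A region of 10.9 kb downstream of it had pileups of 168 and 95 and fold enrichments of 7.29 and 8.09, and the other 5 lay between 2.48 and 4.08 in replicate 1 and between 2.78 and 8.11 in replicate 2. A second chain of 9 regions, at rank 45, began 27.9 kb beyond the end of the gene and had fold enrichments of up to 7.66 and 9.15. Within 150 kb PRDM1 had these 16 members.

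**Figure D4:**
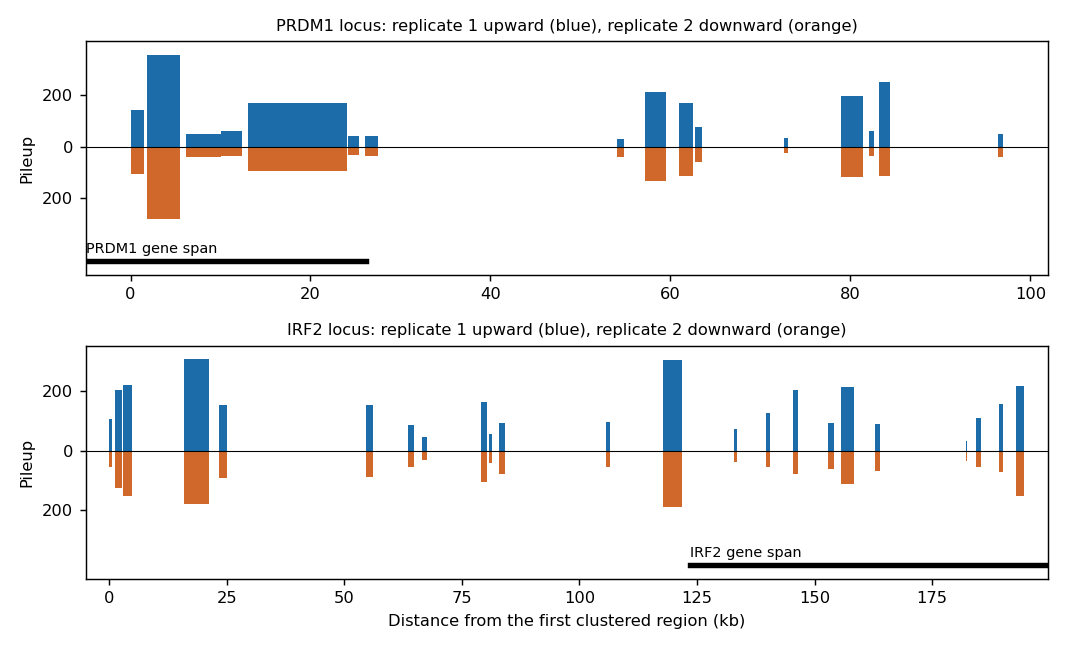
Pileup of each member around PRDM1 (upper panel) and IRF2 (lower panel) against distance in kb from the first clustered region, with replicate 1 drawn upward in blue, replicate 2 downward in orange, bar width as region length and the gene span as a black line that stops at the panel edge. The 16 PRDM1 members fall into 2 chains and the 23 IRF2 members into 4, and the tallest PRDM1 member has pileups of 354 and 280.

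Other chains of the first 15 spread their signal over many regions or concentrated it in 1. INPP4A, which encodes a phosphoinositide phosphatase, had the longest chain, 15 regions over 76.9 kb with fold enrichments of 2.52 to 8.37 in replicate 1 and 3.32 to 14.9 in replicate 2. FOXO3, a forkhead transcription factor of stress and survival, also had 15 regions, over 71.2 kb, and none carried more than 21.0% of the score. The chain at SNN and TXNDC11, the second a thioredoxin-domain protein of the endoplasmic reticulum, held 14 regions over 76.1 kb. By contrast, 1 region carried 91.4% of the score at ATF3, a stress-induced bZIP factor, with pileups of 438 and 572 and fold enrichments of 14.2 and 30.8. At NFIL3, another bZIP factor, 1 region carried 83.0% and had fold enrichments of 12.1 and 23.2, with its summit 312 bp from an NFIL3 start. ATF3 and NFIL3 ranked 34 and 31 by replicate 1 and 7 and 6 by replicate 2, so their places among the first 15 rested on replicate 2. Of the first 15, the chain at TENT5C is described below, and the remaining ones overlapped GPRIN3 (6 regions), PCP4 (7), the G protein subunit gene GNG7 (5) and the splicing regulator CELF2 (4), or, at rank 14, non-coding genes 9.66 kb from MYL12BP2.

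The chain with the most regions ranked 32. It held 17 regions inside CCDC88C on chromosome 14, over 67.9 kb, with fold enrichments of 2.44 to 10.2 in replicate 1 and 3.15 to 14.8 in replicate 2. ERN1, which encodes the stress sensor IRE1 that splices XBP1 RNA, came next with 16 regions over 72.0 kb at rank 38. Its strongest member had pileups of 191 and 96 and fold enrichments of 10.1 and 9.47, and no region carried more than 20.2% of the score.

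Of the 565 chains, 388 (68.7%) overlapped a protein-coding gene, 349 of them exactly 1, and 255 (45.1%) lay wholly inside 1 gene. Another 177 overlapped none, of which 108 overlapped an annotated gene of another kind. Members lay inside protein-coding gene spans in 59.9% of cases and other shared distal regions in 50.9%. The median distance to the nearest gene end was 24.7 kb for members and 33.1 kb for the others, and 12.9% of members and 25.7% of the others were over 100 kb from one. Within 50 kb of a chain lay 975 of 20037 protein-coding genes (4.87%), and 415 (2.07%) overlapped one.

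Genes that define plasma cells or act in myeloma were often near a chain. Of 40 such genes, 23 (57.5%, exact Clopper-Pearson 95% interval 40.9 to 73.0%) had a span within 50 kb of a chain, beside 4.87% of all protein-coding genes, and 16 (40.0%) overlapped one, beside 2.07%. Intervals here cover counting error only. The 23 genes had 23 different chains, and 7 of them were near 1 of the first 100. The list was written with earlier results of these data known, and its genes are not independent of each other. Some of the 23 also count in lists below. These were 2 unfolded protein response genes, 2 ETS, AP-1 and Ikaros factors, 1 interleukin-6 and JAK-STAT gene and 1 IRF gene. With gaps of at most 5 kb the count was 12 of 40, beside 1.61% of all genes, and with a fold enrichment of at least 3 in both replicates it was 10 of 40, beside 2.25%.

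After PRDM1, the highest-ranked chain of this list was at TENT5C, a poly(A) polymerase that stabilises antibody and secretory messages and is often mutated in myeloma. Its 9 regions over 60.6 kb ranked 13, with fold enrichments of 3.32 to 10.5 in replicate 1 and 3.40 to 16.0 in replicate 2. TNFRSF13B, the receptor TACI for the survival factors BAFF and APRIL, had 6 regions at rank 25 and fold enrichments of up to 10.4 and 13.4. SDC1, the surface syndecan CD138 by which plasma cells are recognised, had 4 regions at rank 68, and its strongest reached 8.83 and 12.01. Near XBP1, the factor that expands the secretory pathway, 6 regions at rank 95 lay 11.1 kb away and reached 8.50 and 7.72. SLAMF7, a surface antigen targeted by antibody therapy, had 8 regions at rank 84. JCHAIN, the joining chain of secreted antibody, had 5 regions at rank 144, and CD38 had 5 regions 6.40 kb away at rank 481. The genes of this list lay near chains from rank 4, at PRDM1, to rank 560, near CRBN.

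The labelled cell type was compared with markers of other cell types, which are largely members of the same lists. Of 10 plasma cell markers, 8 were near a chain, all but MZB1 and TNFRSF17, while 0 of 8 B cell, 0 of 5 T cell, 0 of 5 myeloid, 0 of 3 erythroid and 0 of 4 stromal and endothelial markers were. At the 4.87% of all protein-coding genes, lists as short as these would hold few genes or none near a chain, so the zeros alone do not set these cell types apart. Of 4 epithelial markers, EPCAM was, 45.8 kb from the chain at rank 62. In the wider list of 28 B cell genes none was within 50 kb of a chain, which allows a share of up to 12.3% by the same exact interval, above the 4.87% of all genes. Within 100 kb 2 of 28 were, beside 7.24% of all genes. This list and the plasma cell and myeloma list share no gene, so a gene active in both cell types counts in 1 list at most. PAX5 and BACH2, factors that hold the B cell state, lay 680 and 539 kb from the nearest chain. With chains built without replicate 1, 4 of 28 were within 50 kb, beside 8.19% of all genes, and without replicate 2 the count was 2 of 28, beside 7.99%. Among 38 markers of other cell types, 2 were near a chain, EPCAM and MBP, a share of 5.26% beside 4.87% of all genes.

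**Figure D5:**
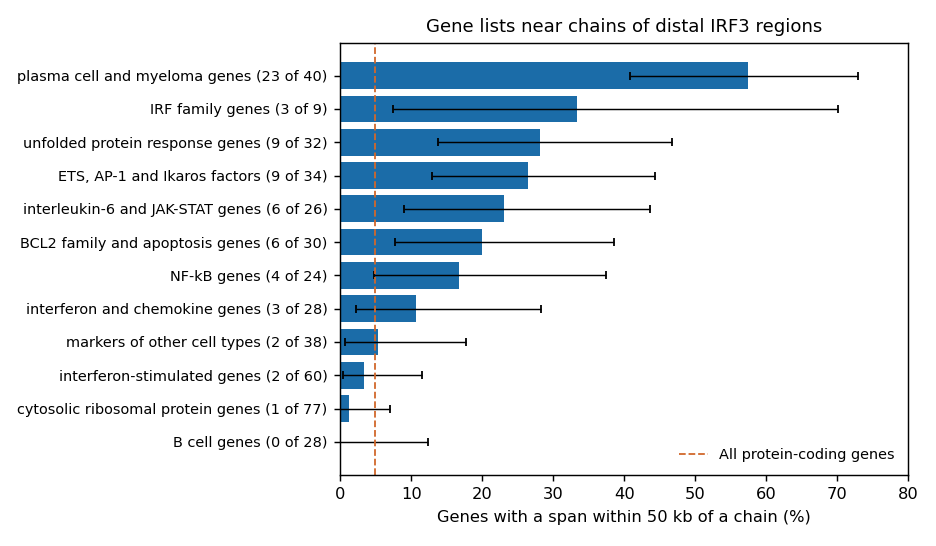
Percent of the genes in each of 12 lists with a span within 50 kb of a chain, with exact 95% intervals and the share of all protein-coding genes (4.87%) as a dashed line. Plasma cell and myeloma genes stood at 57.5% (23 of 40), and B cell genes at 0 of 28.

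Among the IRF genes, the family to which IRF3 itself belongs, 3 of 9 were near a chain (interval 7.49 to 70.1%), beside 4.87% of all protein-coding genes, and all 3 were overlapped by one. IRF2, a repressor and activator of interferon response genes, had 23 members in 4 chains within 150 kb, at ranks 14, 17, 160 and 221. The chain that overlaps it held 8 regions over 58.2 kb, and its strongest had pileups of 306 and 190 and fold enrichments of 11.4 and 11.1. IRF1, which activates the same elements, had 19 members in 3 chains at ranks 40, 54 and 213, with fold enrichments of up to 10.3 and 15.8. IRF4, on which myeloma cells depend, had 4 regions at rank 256 reaching 4.35 and 5.32, and another 8 regions lay 54.5 kb away inside DUSP22 at rank 16, reaching 8.26 and 7.80. IRF1 and IRF2 were among 5 genes with 3 chains within 50 kb, the others being PRKD3, QPCT and ZNF217. IRF8 lay 327 kb from a chain.

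Genes of the unfolded protein response, by which secretory cells adjust protein folding, followed. Of 32, 9 (28.1%) were near a chain, beside 4.87% of all protein-coding genes, and with gaps of at most 5 kb 3 were, beside 1.61% of all genes. All 3 stress sensors had one. ERN1 is described above, ATF6 had 7 regions at rank 326 reaching 5.33 and 3.96, and EIF2AK3, which encodes PERK, had 6 regions at rank 353 reaching 4.69 and 5.77. EDEM1 and EDEM3, which mark misfolded glycoproteins for disposal, ranked 157 and 351, and SEL1L, a subunit of the disposal complex, ranked 425. The other 3 were XBP1, SEC61B and CREB3L2.

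Of 34 ETS, AP-1 and Ikaros factors, 9 (26.5%) were near a chain, beside 4.87% of all protein-coding genes. With a fold enrichment of at least 3 in both replicates 4 were, beside 2.25%, and with regions at annotated starts left out 6 were, beside 3.93%. After ATF3 came FLI1, with 7 regions at rank 59 and fold enrichments of up to 11.9 and 14.5, and ELK3, with 4 regions at rank 176 and up to 13.2 and 10.1. IKZF1 and IKZF3, the factors degraded by the myeloma drug lenalidomide, had 6 and 4 regions at ranks 285 and 335, and no member of either exceeded 4.997 in replicate 1 or 6.44 in replicate 2. CRBN, the receptor of that drug, lay 46.5 kb from the chain at rank 560. The other genes were ETV6, ELF2, JUNB and MAFF.

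Of 30 BCL2 family and apoptosis genes, 6 were near a chain (interval 7.71 to 38.6%), beside 4.87% of all protein-coding genes. BCL2L1, which encodes the survival protein BCL-XL, had 12 regions over 59.6 kb at rank 18, and its strongest had pileups of 258 and 133 and fold enrichments of 9.62 and 12.8. Its relatives MCL1 and BCL2 lay 4280 and 7840 kb from the nearest chain. The killers BMF and BAK1 had 4 regions each at ranks 226 and 279, and the caspase genes CASP8 and CASP10 had 4 and 5 at ranks 100 and 364. CASP8 and CASP10 each had both of these chains within 50 kb, and CFLAR lay 31.9 kb from the one at rank 364. These neighbouring genes are not independent, although the interval counts each of them separately. Of 26 interleukin-6 and JAK-STAT genes, 6 (23.1%) were near a chain, led by the phosphatase gene PTPN6 with 8 regions at rank 41. That chain also overlaps ENO2, ATN1 and C12orf57. A chain overlapped 2 of the 26, beside 2.07% of all genes, and with a fold enrichment of at least 3 in both replicates 2 were near one, beside 2.25%. Of 24 NF-kB genes, 4 were (interval 4.74 to 37.4%, which holds the share of all genes), led by the inhibitor TNFAIP3, 44.1 kb from 7 regions at rank 81, and with gaps of at most 5 kb 0 were. With a fold enrichment of at least 3 in both replicates 1 was, beside 2.25% of all genes.

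Of 60 interferon-stimulated genes, the textbook targets of IRF3, 2 were near a chain (3.33%, interval 0.406 to 11.5%), a share whose interval holds the 4.87% of all genes. Regions at gene ends were left out before chaining, so this count does not measure binding at the ends of these genes. At 45 of these 60 genes a shared summit lay within 1 kb of an end, beside 50.03% of all protein-coding genes. ISG20, a nuclease of viral RNA, was overlapped by a chain of 6 regions over 19.8 kb at rank 180, which also overlaps AEN. The member at the ISG20 start printed above had the highest pileups of the chain, 156 and 161. The member at an AEN start had a higher fold enrichment in replicate 1, 6.30 against 6.13. APOBEC3G, an editor of viral DNA, lay 3.10 kb from 4 regions at rank 467. With chains built without replicate 1 the count was 9 of 60 (beside 8.19% of all genes), and without replicate 2 it was 3 of 60 (beside 7.99%). Of 28 interferon and chemokine genes, 3 were near a chain (10.7%, interval 2.27 to 28.2%), namely the interleukin genes IL12A, IL10 and IL12B, at ranks 367, 398 and 494. IFNB1 and CXCL10 lay 1160 and 663 kb from one. All 77 cytosolic ribosomal protein genes had a shared summit within 1 kb of a gene end, beside 50.03% of all protein-coding genes. Of these 77, 1 (RPL3) was near a chain (1.30%), beside 4.87% of all genes.

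Several genes of myeloma biology had no chain within 50 kb. MYC, a transcription factor of cell growth that is often activated in myeloma, lay 448 kb from the nearest, MAF 432 kb, CCND2 109 kb and PIM1 97.8 kb. A shared summit within 1 kb of an end was present at each of these 4, and at 50.03% of all protein-coding genes. POU2AF1, a co-activator of antibody genes, lay 32.9 kb from 4 regions at rank 391. At the antibody light chain locus on chromosome 22, 10 members in 2 chains lay 21.3 and 32.1 kb from IGLL5, at ranks 218 and 51, with fold enrichments of up to 13.7 and 17.3. On chromosome 14, a chain of 5 regions at rank 500 overlapped the heavy chain locus, and another of 5 at rank 389 lay 29.0 kb from TMEM121.

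The rule left out regions at gene ends, so these can be read beside the chains. Of the 975 genes within 50 kb of a chain, 646 (66.3%) had a shared summit within 1 kb of an end, beside 50.03% of all protein-coding genes and 49.2% of those not near a chain. These end regions had median fold enrichments of 6.36 and 9.11 at genes near chains (quartiles 4.30 and 8.61, and 6.62 and 13.2), against 5.48 and 8.42 at genes not near them (4.03 and 7.48, and 5.93 and 11.9). Neighbouring genes can share a region, and both values come from the same 2 libraries. Genes near chains were also longer, with a median span of 34.6 kb against 24.1 kb for all genes; the part of gene length in the count was not tested. When the midpoint of the gene, in place of its span, had to lie within 50 kb, 21 of the 40 plasma cell and myeloma genes remained near a chain, beside 3.68% of all genes.

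More peaks lay between the members than the rule counted. Chain spans held 90 shared regions at gene ends, or 7.10 per Mb of span against 3.39 per Mb of the effective genome. They held 167 regions of replicate 1 alone (13.2 against 3.02 per Mb) and 253 of replicate 2 alone (19.95 against 3.21 per Mb). No other region was present in 300 chains, and 77 had a gene-end region within their span. Another chain lay within 100 kb of 108 chains (19.1%), and the median distance to the next chain was 826 kb. The share of shared distal regions that were members was highest on chromosomes 17 (18.8%), 15 (16.3%) and 20 (15.9%) and lowest on X (5.96%), 13 (6.18%) and 9 (7.48%).

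Outside NEAT1, several of the strongest members covered non-coding genes. A region of 2.34 kb at SNHG12, a host gene of small nucleolar RNAs, had fold enrichments of 28.7 and 54.7 and carried 89.1% of the chain at rank 21. Its summit lay 92 bp from an SNHG12 start. A region at RNVU1-6, a variant U1 small nuclear RNA gene in a chain that also holds transfer RNA genes, had pileups of 1206 and 584 at rank 27. Such genes have near-identical copies, and reads may be placed on the wrong one. MicroRNA genes lay in 5 members. MIR148A, whose microRNA is abundant in plasma cells, lay in a region of 2.96 kb with pileups of 238 and 260 and fold enrichments of 8.88 and 19.6, in a chain of 6 regions at rank 29 that lay 183 kb from the nearest protein-coding gene. Its mature sequence in RefSeq is shown with the seed, bases 2 to 8, in capitals.
hsa-miR-148a-3p (chr7:25949922-25949943, minus strand): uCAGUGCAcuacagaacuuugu
The other 4 were MIR4496 in the leading SELPLG region, MIR9-2 at rank 69 (fold enrichments of 2.47 and 3.62), MIR4513 at rank 99 (6.76 and 6.72) and MIR4437 at rank 114 (6.32 and 7.37).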

How the data were processed

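The data are the authors' narrow peak lists for 2 IRF3 ChIP libraries of MM1.S cells. The inputs entered only through the peak calls. Per the file headers, peaks were called with MACS2 2.1.2 for each library against the input of its number, at a q-value of 0.05, for tags of 74 bp, an effective genome of 2.70e+09 bp, fragment lengths of 267 bp (replicate 1) and 251 bp (replicate 2) and all duplicates kept at that step. The submitters' processing notes name GRCh38, deepTools 3.3.1, SAMtools 1.2, Picard 2.6.0, BWA 0.7.15 and MACS2 2.1.1, with no roles given. Whether duplicates or problem regions were removed earlier was not stated, and this could change the values at copy-rich loci. The deposited pileup is a signal, namely how many ChIP fragments stack at the summit, and it grows with depth. The deposited fold enrichment is a ratio of that signal to the local input. The deposited −log10 p and −log10 q columns had damaged names and were told apart by the order MACS2 writes them in; the q values entered 1 alternative and the p values were not used.

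Merging, chaining and counting were done with Python 3.11.15, numpy 2.4.6, pandas 2.3.3 and scipy 1.17.1, figures were drawn with matplotlib 3.10.9, and the merging and chaining were checked on simulated data. A region took the highest peak of each replicate. Gene spans, starts, promoter windows and microRNAs came from RefSeq tables of GRCh38.p14; no genome sequence was used. The 408 distinct genes of 12 lists (426 entries) all matched. Named are genes at the 15 highest-scoring chains, at the 5 with most regions and the 5 longest, up to 4 genes of each list at the highest-ranked chains within 50 kb, and 20 genes set by name; the strongest members, further list genes, the microRNAs and the antibody loci were added with their values in view. The members and lists were chosen with earlier results of these data known. No test was run, because the rule used the readout and the series has 1 condition.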

Additional observations from a re-analysis of the deposited data

How the results depend on the processing

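The number of members was 2838 in 565 chains. It was 1864 members in 377 chains with a −log10 q of at least 5, 1180 in 243 chains with a fold enrichment of at least 3 in both replicates, 920 in 193 with gaps of at most 5 kb, 4481 in 837 with gaps of at most 20 kb, 5124 in 1327 when 3 regions sufficed and 1618 in 260 when 5 were needed. Leaving out 1 replicate gave 5138 to 5246 members in 961 to 971 chains. With regions within 1 kb of any annotated start left out, an alternative chosen after seeing the data, 2374 members in 477 chains remained. Of the first 15 chains, 5 kept their place among the first 15 when pileup was multiplied by the whole span, 7 with summed fold enrichment and 13 to 14 with the pileup of 1 replicate alone. In that last case the chains and region lengths still came from both replicates. The share of list genes near a chain, minus that of all genes, was -1.61 percentage points for NF-kB genes with gaps of at most 5 kb (11.8 points at the gap of the rule), 7.76 points for unfolded protein response genes and 28.4 points for plasma cell and myeloma genes at that gap, and 22.8 points for the plasma cell and myeloma genes with a fold enrichment of at least 3. Leaving out 1 replicate gave -2.99 to 6.81 points for interferon-stimulated genes and -5.59 to -4.09 points for ribosomal protein genes. Of 96 recomputed list differences, 90 stayed within the exact interval of the count at the settings of the rule. That interval is wide, and within it the sign changed for B cell genes (6.10 points without replicate 1), interferon and chemokine genes (-2.07 points for overlap and -1.61 points with 5 kb gaps), interferon-stimulated genes (1.72 points with 5 kb gaps) and markers of other cell types (-1.61 points with 5 kb gaps and -1.05 points for gene midpoints, an alternative also chosen after seeing the data). The causes were not tested. No paired analysis was possible because the input libraries have no peak lists here and no result comes from a test. With 2 replicates and 1 cell line, the spread between cultures was not measured, and enrichments near the calling threshold are limited by depth.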
